A study of Mus musculus with 4 samples.

Results

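The genes described here are 44 genes of fatty acid uptake, activation, oxidation and its regulation in mouse heart ventricles. They were chosen by gene symbol, with earlier results of these data known. All 44 were found among the 46603 genes of the deposited table, and all 44 passed a filter (10 or more reads on average) that left 14301 genes for testing. Messenger RNA came from C57Bl6/J mice aged 8 to 12 weeks, in 4 groups: P2Y6 KO given isoproterenol, P2Y6 KO given saline, WT given isoproterenol and WT given saline. The KO mice are P2Y6-null, and P2ry6, the targeted gene, encodes a cell surface receptor for extracellular nucleotides. The labels name no tissue-restricted driver. Isoproterenol, an agonist of beta-adrenergic receptors used to provoke cardiac hypertrophy, was injected into the peritoneum at 50 mg/kg/day for 7 days. Each group held 1 library, and the labels do not say whether it came from 1 heart or from a pool.

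The libraries held 18771198 (KO isoproterenol), 22965087 (KO saline), 20721472 (WT isoproterenol) and 25637369 reads (WT saline) in the listed genes, of which transcripts of the mitochondrial genome took 22.5% to 28.9%. P2ry6 stood at 0.533 CPM in KO isoproterenol and 0.566 CPM in KO saline, against 5.89 CPM in WT isoproterenol and 5.11 CPM in WT saline. Levels are given in CPM as deposited, which is reads per 1000000 in the library. Ratios are of reads between libraries after TMM scaling, with a 95% counting interval in parentheses. A gene counted as higher, or as lower, only if both ends of that interval were past 1.5-fold. With 1 library per group no ratio has a replicate check, so an interval compares those libraries and not the conditions, and it covers counting error only. Ventricular cardiomyocyte markers (10 of 10 detected in every library) summed to 62588 CPM in KO isoproterenol, 75738 CPM in KO saline, 71790 CPM in WT isoproterenol and 76529 CPM in WT saline, as the labelled tissue has them.

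The working heart draws most of its energy from long-chain fatty acids. They cross the cell membrane with the help of CD36 and the FATP transporters, are bound by FABP proteins, and are joined to coenzyme A by the ACSL enzymes. Carnitine palmitoyltransferases then carry the acyl groups into mitochondria, a step that malonyl-CoA inhibits, and the cycle of beta-oxidation shortens them while passing electrons to the respiratory chain through ETF. Nuclear receptors of the PPAR family, with RXR as partner and PGC-1 proteins as coactivators, are known to drive transcription of these genes.

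In KO ventricles 25 of the 44 genes were lower after isoproterenol and 0 were higher, against a background of 4.22% of all tested genes lower and 7.09% higher. In WT ventricles 2 of the 44, Fabp3 and Ech1, were lower and 0 were higher, against 0.797% and 0.860% of all tested genes. The median log2 ratio of the 44 was -0.74 in the KO pair and -0.17 in the WT pair, where that of all tested genes is 0 in each. In the KO pair 38 of the 44 ratios lay below 1, and they ran on the log2 scale from -1.55 for Ech1 to 0.41 for Acsl5. In the WT pair 32 lay below 1, with log2 ratios between -0.63 for Fabp3 and 0.44 for Acsl6. Summed over the 44 genes, the level was 10866 CPM in KO isoproterenol against 17977 CPM in KO saline, and 13642 CPM in WT isoproterenol against 17619 CPM in WT saline. These sums are 1.09%, 1.80%, 1.36% and 1.76% of the reads of the libraries in that order, so both saline libraries were close and the KO isoproterenol library held the smallest share.

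**Figure D1:**
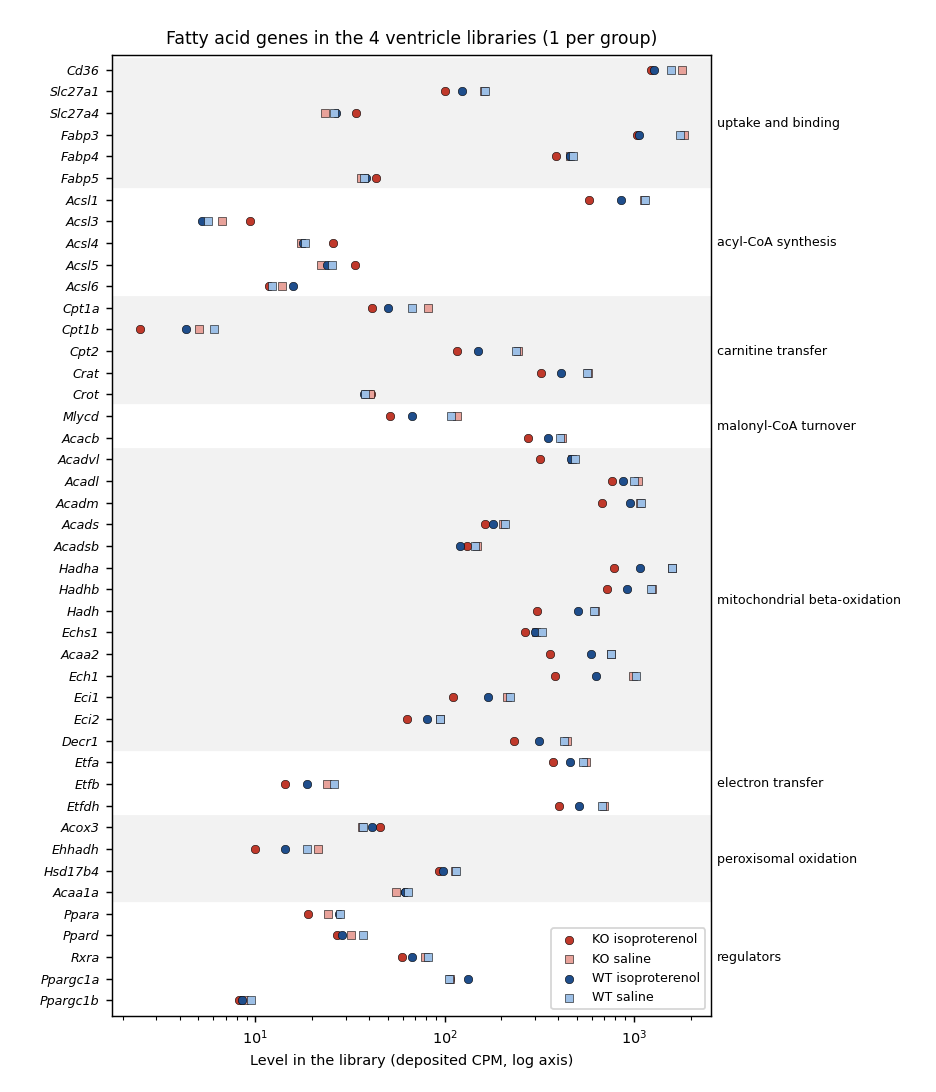
Level of each of the 44 genes in the 4 libraries, in deposited CPM on a log axis, with 1 point per library and genes grouped by role. For most genes of beta-oxidation the KO isoproterenol point lies farthest left and both saline points lie together, as for Ech1 at 384 CPM in KO isoproterenol, 991 CPM in KO saline, 629.7 CPM in WT isoproterenol and 1022 CPM in WT saline.

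Markers of some cell types were also counted, in differing directions. The shares over all tested genes were 4.22% lower and 7.09% higher in the KO pair, and 0.797% and 0.860% in the WT pair. In the KO pair 4 of 10 ventricular cardiomyocyte markers were lower after isoproterenol (median log2 ratio -0.50), among them Myl2 and Myl3, the ventricular light chains of myosin, and 0 of 10 in the WT pair (median -0.01). Fibroblast markers were higher for 6 of 8 genes in the KO pair and 3 of 8 in the WT pair, and summed to 2297 CPM in KO isoproterenol, 920.1 CPM in KO saline, 1237 CPM in WT isoproterenol and 1021 CPM in WT saline. Macrophage markers were higher for 8 of 11 genes in the KO pair and 0 of 11 in the WT pair, with sums of 1088, 483, 506 and 537 CPM in the same order. Endothelial markers were counted in neither pair, 0 of 10, with sums of 1357, 1350, 1273 and 1403 CPM in the same order. None of the markers of these 4 cell types stood at 0 in any library. Smooth muscle markers were higher for 2 of 4 genes in the KO pair and 0 of 4 in the WT pair, with sums of 357, 284, 366 and 357 CPM in the same order. Adipocyte markers summed to 9.27, 7.75, 19.8 and 17.0 CPM, with 1 of 7 at 0 in at least 1 library, and 5 passed the filter, of which 0 were counted in the KO pair and 1 was higher in the WT pair. The part of these cell types in the counts of the 44 genes was not tested. The scaling by cardiomyocyte markers given next does not test it either, because it levels those markers by construction. In bulk tissue, fewer cells of a type and less RNA per cell cannot be told apart.

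Each library was then scaled by the cardiomyocyte markers, a choice made after the data were seen. The scale was the median, over the 10 markers, of the log2 deviation from the marker's mean. It levels these markers by construction, and their median log2 ratio in the KO pair was -0.06. On that scale 11 of the 44 genes were lower in KO isoproterenol than in KO saline, all of them among the 25. They were Acsl1, Cpt1a, Cpt2, Mlycd, Hadha, Hadh, Acaa2, Ech1, Eci1, Decr1 and Ehhadh. Slc27a4, Acsl4 and Acsl5 were higher on it, the median log2 ratio of the 44 was -0.31, and that of all tested genes was 0.43. In that scaling 1.22% of all tested genes were lower and 18.3% higher. Scaling by total counts alone left 17 of the 44 lower in the KO pair, with a median of -0.56 against 0.18 for all tested genes. The background of lower genes was then 2.50%. In the WT pair cardiomyocyte-marker scaling gave 2 lower genes against a background of 0.846%, with a median of -0.18, and total-count scaling gave 3 against 1.01%, with a median of -0.25. With TMM scaling and a 2-fold threshold, 11 of the 44 were lower in the KO pair against a background of 1.30%, and 0 in the WT pair against 0.245%.

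**Figure D2:**
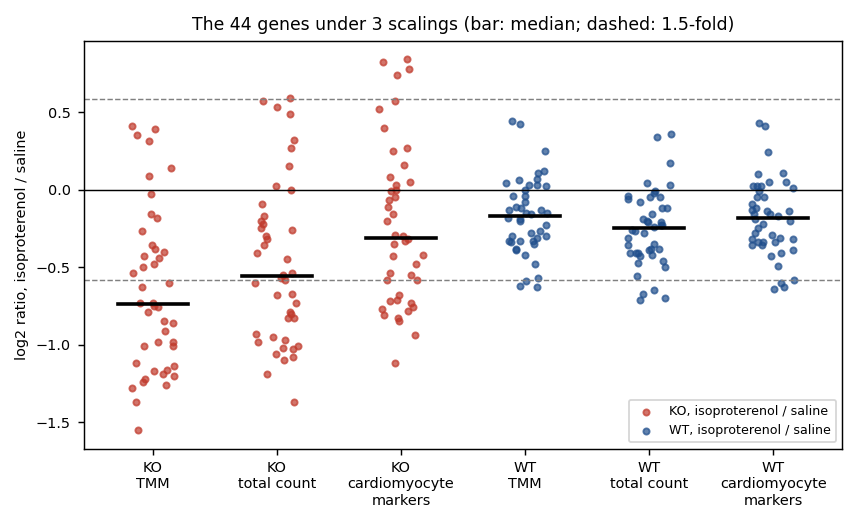
Log2 ratios of isoproterenol to saline for the 44 genes in the KO and WT pairs under TMM, total-count and cardiomyocyte-marker scaling, with 1 point per gene, bars at the median and dashed lines at 1.5-fold. The KO median is -0.74, -0.56 and -0.31 under the 3 scalings, and the WT median stays between -0.17 and -0.25.

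Uptake and binding genes came first in the pathway, and 3 of 6 were lower in the KO pair and 1 of 6 in the WT pair. The shares of all tested genes were 4.22% and 0.797%. Fabp3 (ENSMUSG00000028773, GRCm38 chromosome 4, 130308595 to 130315463, plus strand) encodes the heart form of the cytosolic fatty acid binding proteins. It stood at 1039 CPM in KO isoproterenol and 1844 CPM in KO saline, 2.01-fold lower (1.98 to 2.05). In WT it stood at 1068 CPM after isoproterenol and 1751 CPM after saline, 1.55-fold lower (1.53 to 1.58). Both isoproterenol libraries were thus low and both saline libraries high, with the pairs close to each other. On the other strand, 19.6% of the exon bases of Fabp3 are overlapped by annotated genes, and whether the counting used strand is not given in the sources used here.

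Cd36, the main membrane protein of long-chain fatty acid uptake in heart, stood at 1231 CPM in KO isoproterenol and 1795 CPM in KO saline, 1.65-fold lower (1.63 to 1.68). In WT ventricles it stood at 1271 CPM after isoproterenol and 1579 CPM after saline, 1.18-fold lower (1.16 to 1.19) and so not counted. Slc27a1, the transporter FATP1, had 100.3 CPM in KO isoproterenol against 161 CPM in KO saline, a level 1.82-fold lower (1.72 to 1.92), and 124 CPM in WT isoproterenol against 163 CPM in WT saline. The related transporter Slc27a4 did not share this order, at 33.9 and 23.5 CPM in KO isoproterenol and KO saline and 26.6 and 26.1 CPM in WT isoproterenol and WT saline. Its KO ratio of 1.27 (1.13 to 1.43) was above 1 and not counted. Fabp4, the form of adipocytes and capillary endothelium, had 387 CPM in KO isoproterenol and 459 CPM in KO saline, 460.1 CPM in WT isoproterenol and 476 CPM in WT saline. Fabp5, the epidermal form, had between 36.3 and 43.7 CPM in the 4 libraries. Per kilobase of exon, Fabp3 made up 92.8% of the summed level of Fabp3, Fabp4 and Fabp5 in KO isoproterenol, 95.2% in KO saline, 92.0% in WT isoproterenol and 94.8% in WT saline. By reads alone, Fabp3 made up 70.7%, 78.8%, 68.2% and 77.3% in the same order. The annotated exons of Fabp4 add up to 4489 bases, its whole gene span, against 823 for Fabp3. Division by exon length therefore lowers the share of Fabp4, and the share per kilobase is uncertain.

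Activation of fatty acids by acyl-CoA synthetases divided the Acsl genes. Acsl1, the main synthetase of cardiomyocytes, stood at 578 CPM in KO isoproterenol and 1135 CPM in KO saline, 2.23-fold lower (2.18 to 2.28). The WT libraries had 858 CPM after isoproterenol and 1141 CPM after saline, 1.26-fold lower (1.23 to 1.28). The KO isoproterenol library was therefore the lowest, the WT isoproterenol library was between, and the saline libraries were level. None of the other 4 Acsl genes was counted. Acsl4, which prefers arachidonic acid, had 25.9 CPM in KO isoproterenol and 17.4 CPM in KO saline, a ratio of 1.31 (1.15 to 1.5), and 17.8 and 18.4 CPM in WT isoproterenol and WT saline. Acsl5, a synthetase of mitochondria and the endoplasmic reticulum, had 33.8 and 22.4 CPM in KO isoproterenol and KO saline, a ratio of 1.33 (1.18 to 1.49), and 23.9 and 25.3 CPM in WT isoproterenol and WT saline. Acsl3, a synthetase of lipid droplets, had 9.43, 6.71, 5.21 and 5.66 CPM in KO isoproterenol, KO saline, WT isoproterenol and WT saline. Acsl6 ran in opposite directions, at 11.8 CPM in KO isoproterenol and 13.8 CPM in KO saline but 15.8 CPM in WT isoproterenol and 12.3 CPM in WT saline. Per kilobase of exon, Acsl1 made up 78.5% of the summed level of the 5 genes in KO isoproterenol, 91.0% in KO saline, 88.1% in WT isoproterenol and 90.7% in WT saline.

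Carnitine transfer and malonyl-CoA turnover together had 6 of 7 genes lower in the KO pair and 0 of 7 in the WT pair. Of all tested genes, 4.22% and 0.797% were lower in those pairs. Cpt2, the inner membrane transferase that returns the acyl group to coenzyme A, stood at 116 CPM in KO isoproterenol and 244 CPM in KO saline, 2.39-fold lower (2.28 to 2.52). In WT it had 151 CPM after isoproterenol and 238 CPM after saline, 1.49-fold lower (1.42 to 1.55), at the edge of the counting rule. Crat, the acetyltransferase that buffers acetyl-CoA as acetylcarnitine, had 324 and 576 CPM in KO isoproterenol and KO saline, 2.02-fold lower, and 411 and 566 CPM in WT isoproterenol and WT saline. In both genes the saline libraries lay within a few percent of each other and the KO isoproterenol library was lowest. Crot, which acts on medium-chain acyl groups from peroxisomes, had 37.5 to 41.0 CPM in the 4 libraries and was not counted.

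Outer membrane carnitine palmitoyltransferase, the step that malonyl-CoA inhibits, has a liver form, Cpt1a, and a muscle form, Cpt1b. Cpt1a stood at 41.6 CPM in KO isoproterenol and 82.2 CPM in KO saline, 2.24-fold lower (2.06 to 2.44), and at 50.5 CPM in WT isoproterenol and 67.2 CPM in WT saline, 1.26-fold lower (1.16 to 1.36). Cpt1b was listed at 2.45, 5.05, 4.30 and 6.08 CPM in KO isoproterenol, KO saline, WT isoproterenol and WT saline, with a KO ratio 2.32-fold lower (1.65 to 3.37). Per kilobase of exon, Cpt1a made up 88.2% of the summed level of both genes in KO isoproterenol, 87.8% in KO saline, 83.8% in WT isoproterenol and 83.0% in WT saline, so the liver form stands above the muscle form in this table. Of the exon bases of Cpt1b (ENSMUSG00000078937, GRCm38 chromosome 15, 89416405 to 89425863, minus strand), 81.4% are overlapped on the same strand by Gm44502, an annotated read-through gene. How reads in shared exons were assigned is not given in the sources used here, so the level of Cpt1b is uncertain, and so is its order against Cpt1a.

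Malonyl-CoA is made by the mitochondrial acetyl-CoA carboxylase, Acacb, and removed by malonyl-CoA decarboxylase, Mlycd, and both were lower in the KO pair. Mlycd had 51.5 CPM in KO isoproterenol and 117 CPM in KO saline, 2.58-fold lower (2.40 to 2.78). In WT it had 67.5 CPM after isoproterenol and 108 CPM after saline, and its 1.51-fold lower ratio (1.41 to 1.61) was not counted because the interval reached inside 1.5-fold. Acacb had 276 CPM in KO isoproterenol and 419.9 CPM in KO saline, 1.72-fold lower (1.67 to 1.78), and 351 and 405 CPM in WT isoproterenol and WT saline. The enzyme that makes the inhibitor and the enzyme that removes it were therefore low in the same library.

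Mitochondrial beta-oxidation is the largest group, and 11 of its 14 genes were lower in the KO pair, against 1 of 14 in the WT pair. Over all tested genes these shares were 4.22% and 0.797%. Ech1 (ENSMUSG00000053898, GRCm38 chromosome 7, 28825217 to 28832247, plus strand), an auxiliary isomerase of unsaturated fatty acids, had the lowest KO ratio of the 44. It stood at 384 CPM in KO isoproterenol and 991 CPM in KO saline, 2.93-fold lower (2.85 to 3.01), and at 629.7 CPM in WT isoproterenol and 1022 CPM in WT saline, 1.54-fold lower (1.5 to 1.57). The other auxiliary enzymes for unsaturated acids also had their lowest level in KO isoproterenol and the next in WT isoproterenol. Decr1, the dienoyl-CoA reductase, had 232 CPM in KO isoproterenol against 443 CPM in KO saline, and 317 CPM in WT isoproterenol against 426 CPM in WT saline, and was 2.17-fold lower (2.09 to 2.25) in the KO pair. Eci1, an enoyl-CoA isomerase, had 111 and 215 CPM in KO isoproterenol and KO saline, 2.20-fold lower (2.09 to 2.32), and 169.8 and 221 CPM in WT isoproterenol and WT saline. Eci2, the second isomerase, was 1.68-fold lower (1.57 to 1.81) in the KO pair and 1.12-fold lower (1.05 to 1.19) in the WT pair.

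The acyl-CoA dehydrogenases open each turn of the cycle and differ by chain length. Acadvl, for very long chains, had 320.4 CPM in KO isoproterenol and 469 CPM in KO saline, 1.66-fold lower (1.61 to 1.72). In WT ventricles it stood at 468 CPM after isoproterenol and 487 CPM after saline, a ratio with an interval that spans 1, so only the KO isoproterenol library was apart from the others. Acadvl shares 42.9% of its exon bases with Dvl2 on the other strand, which makes its level uncertain if strand was not used. Acadm, for medium chains, had 679.9 and 1083 CPM in KO isoproterenol and KO saline, 1.81-fold lower (1.77 to 1.85), and 956 and 1093 CPM in WT isoproterenol and WT saline. Acadl, for long chains, was 1.55-fold lower (1.52 to 1.58) in the KO pair and 1.09-fold lower (1.06 to 1.11) in the WT pair. Acads, for short chains, and Acadsb, for branched short chains, were not counted, with KO ratios 1.41-fold lower (1.35 to 1.48) and 1.28-fold lower (1.22 to 1.35). By KO ratio the dehydrogenase of medium chains was thus farthest below 1 and that of branched short chains nearest to it.

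Later steps of each turn are carried out by hydratases, dehydrogenases and thiolases. Hadha and Hadhb encode both subunits of the mitochondrial trifunctional protein, which does these steps for long chains. Hadha had 783 CPM in KO isoproterenol and 1587 CPM in KO saline, 2.30-fold lower (2.26 to 2.34), and 1074 CPM in WT isoproterenol and 1583 CPM in WT saline, 1.39-fold lower (1.37 to 1.42). Hadhb had 722 and 1251 CPM in KO isoproterenol and KO saline, 1.97-fold lower (1.93 to 2.01), and 916 and 1228 CPM in WT isoproterenol and WT saline, 1.27-fold lower (1.25 to 1.29). The subunits thus kept the same order of libraries, with Hadha further from 1 in each pair. Hadh, the dehydrogenase for medium and short chains, had 309 and 621 CPM in KO isoproterenol and KO saline, 2.28-fold lower (2.21 to 2.35), and 509 and 619 CPM in WT isoproterenol and WT saline. Acaa2, the thiolase of medium chains, had 362 and 754 CPM in KO isoproterenol and KO saline, 2.37-fold lower (2.30 to 2.43), and 593 and 757 CPM in WT isoproterenol and WT saline. Echs1, the short-chain hydratase, was not counted, with a KO ratio 1.30-fold lower (1.25 to 1.35). On mouse chromosome 5, Hadha and Hadhb lie head to head, with 272 bases between their RefSeq starts. The 250 bases before the start of Hadhb are shown because they hold nearly all of the same stretch before Hadha, in RefSeq's GRCm38.p6, with capitals for the 228 bases that both windows share.
Hadhb, chr5:30155003-30155252, plus strand: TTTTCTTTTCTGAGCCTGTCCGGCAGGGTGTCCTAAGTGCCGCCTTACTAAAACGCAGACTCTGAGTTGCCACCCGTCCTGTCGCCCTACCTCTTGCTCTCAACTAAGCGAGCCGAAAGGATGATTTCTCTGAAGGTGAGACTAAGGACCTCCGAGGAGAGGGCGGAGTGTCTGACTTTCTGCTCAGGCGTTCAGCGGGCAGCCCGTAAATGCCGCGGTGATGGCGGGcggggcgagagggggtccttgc

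Electrons from the acyl-CoA dehydrogenases pass through ETF, a dimer of Etfa and Etfb, to its oxidoreductase Etfdh. All 3 genes were lower in the KO pair and 0 of 3 in the WT pair, against 4.22% and 0.797% of all tested genes. Etfdh had 402 CPM in KO isoproterenol and 699 CPM in KO saline, 1.97-fold lower (1.92 to 2.03), and 514 and 682 CPM in WT isoproterenol and WT saline. Etfa had 375 and 559.5 CPM in KO isoproterenol and KO saline, 1.69-fold lower (1.64 to 1.74), and 459 and 537 CPM in WT isoproterenol and WT saline. Etfb was listed at 14.4 and 23.9 CPM in KO isoproterenol and KO saline, 1.88-fold lower (1.62 to 2.19), and 18.7 and 26.0 CPM in WT isoproterenol and WT saline. Per kilobase of exon, Etfb had 12.4 CPM in KO isoproterenol and Etfa, its partner in the dimer, 205 CPM, and in KO saline the levels were 20.5 and 305 CPM. Of the exon bases of Etfb, 58.2% are overlapped on the same strand by Gm45233 and a miRNA gene, and its level is uncertain for that reason.

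Peroxisomes shorten very long chains, and 1 of the 4 peroxisomal genes was lower in the KO pair and 0 of 4 in the WT pair. The shares of all tested genes were 4.22% and 0.797%. Ehhadh, the bifunctional enzyme of the inducible pathway, had 10 CPM in KO isoproterenol and 21.5 CPM in KO saline, 2.43-fold lower (2.06 to 2.90), and 14.3 and 18.7 CPM in WT isoproterenol and WT saline. Hsd17b4, the other bifunctional enzyme, had a KO ratio 1.40-fold lower (1.31 to 1.48). Acaa1a, a thiolase, had 61.7 CPM in KO isoproterenol and 55.6 CPM in KO saline, with a ratio after TMM scaling whose interval spans 1. Acox3, an oxidase of branched acids, was above 1 in both pairs, with ratios of 1.10 in KO and 1.19 (1.08 to 1.30) in WT.

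None of the 5 regulators was counted in either pair. Of all tested genes, 4.22% were lower and 7.09% higher in the KO pair, and 0.797% and 0.860% in the WT pair. Against such small shares, finding none does not set the regulators apart. Ppara, the nuclear receptor most tied to cardiac fatty acid oxidation, had 19.0 CPM in KO isoproterenol and 24.3 CPM in KO saline, 1.45-fold lower (1.27 to 1.66), and 27.6 and 28 CPM in WT isoproterenol and WT saline. Rxra, its partner, had 59.3 and 79.0 CPM in KO isoproterenol and KO saline, 1.51-fold lower (1.40 to 1.63), and 67.6 and 81.7 CPM in WT isoproterenol and WT saline. For Rxra the KO isoproterenol library was lowest, but the interval reached inside 1.5-fold. Ppard, the related receptor of oxidative tissues, had 26.9, 32.2, 28.9 and 37.1 CPM in KO isoproterenol, KO saline, WT isoproterenol and WT saline. Ppargc1a, the coactivator PGC-1 alpha, was alone among the regulators in having its highest level after isoproterenol, at 133 CPM in WT isoproterenol and 105 CPM in WT saline, a ratio of 1.34 (1.27 to 1.42), with 107 CPM in each KO library. Ppargc1b, PGC-1 beta, had 8.20 to 9.52 CPM in the 4 libraries.

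**Figure D3:**
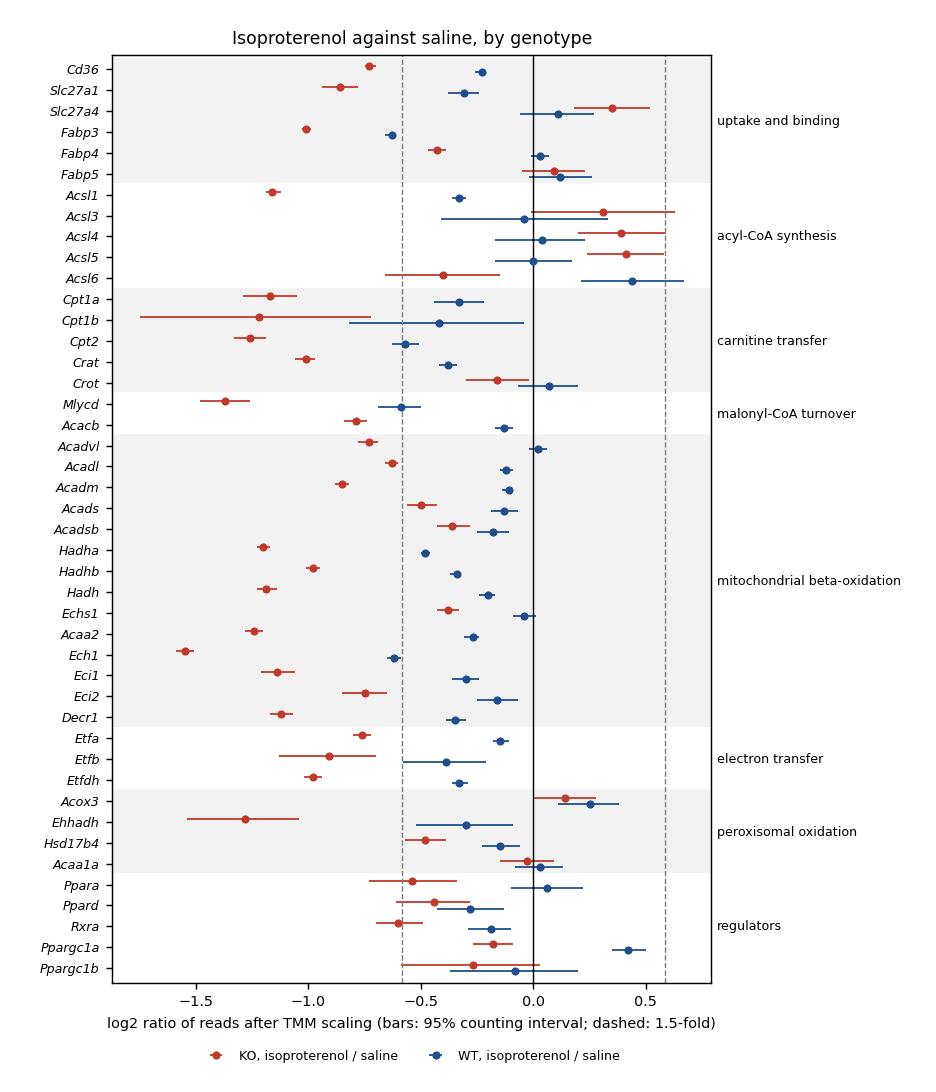
Log2 ratio of isoproterenol to saline for each of the 44 genes in the KO pair and the WT pair after TMM scaling, with bars for the 95% counting interval and dashed lines at 1.5-fold. In the carnitine, malonyl-CoA, beta-oxidation and electron transfer groups each KO point lies left of its WT point, and Ech1 has the lowest KO value at -1.55.

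The KO and WT pairs share no library, so their responses could be set side by side. The KO ratio was lower than the WT ratio for 40 of the 44 genes (90.9%), against 50.3% of all tested genes. Slc27a4, Acsl3, Acsl4 and Acsl5 were the exceptions. The same sign in both pairs was found for 36 of the 44 genes (81.8%), against 65.5% of all tested genes. Across the 44 genes the responses had Pearson's r = 0.77 and Spearman's rho = 0.85, against 0.53 and 0.44 across all tested genes. These are descriptions across genes, which share the libraries, their depth and the scaling. Genes with more reads were lower more often: 19 of the 25 genes with a mean of at least 100 CPM were counted as lower in the KO pair, and 6 of the 19 below that level. More reads also narrow the interval, so the count and the level are tied in part by the counting rule, and the medians of those groups were -0.86 and -0.40.

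As a difference of both log2 responses, KO minus WT, 16 of the 44 genes were lower by more than 1.5-fold and 0 higher, against a background of 1.73% lower and 3.83% higher, with a median of -0.59. Hadh had a difference of -0.98 (-1.04 to -0.93), Ehhadh one of -0.98 (-1.30 to -0.66), Acaa2 one of -0.97 (-1.02 to -0.92) and Ech1 one of -0.93 (-0.98 to -0.88). Fabp3, lower in both pairs, had a smaller difference of -0.38 (-0.41 to -0.34). By role, the count was 9 of 14 for beta-oxidation, 2 of 5 for carnitine transfer, 2 of 2 for malonyl-CoA turnover, 1 of 3 for electron transfer, 1 of 4 for peroxisomal genes, 1 of 5 for acyl-CoA synthesis, and 0 of 6 and 0 of 5 for uptake and for regulators. This difference, the KO pair and the comparison of genotypes given isoproterenol all use the same KO isoproterenol library, so their counts are not independent. The 4 libraries leave no error term for this difference, which was not tested. With total-count scaling 3 genes were lower, at a median of -0.33 and a background of 0.594%. With cardiomyocyte-marker scaling 0 were lower and 1 was higher, at a median of -0.15 and backgrounds of 0.294% and 12.0%. Past 2-fold with TMM scaling there were 0, against 0.329%.

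Between genotypes given saline, 0 of the 44 genes were counted as higher and 0 as lower in KO, against backgrounds of 0.273% and 0.217%. The median log2 ratio of KO to WT was 0.04 and the range ran from -0.22 for Cpt1b to 0.34 for Cpt1a. The sign of that median turned to -0.01 with total-count scaling and -0.03 with cardiomyocyte-marker scaling. Cd36 had a KO to WT ratio of 1.18 (1.16 to 1.19) and Cpt1a one of 1.27 (1.19 to 1.35), each beyond counting error and within 1.5-fold. Between genotypes given isoproterenol, 9 of the 44 were lower in KO and 0 higher, against 1.80% and 4.20% of all tested genes, with a median of -0.52. They were Acsl1 and 8 genes of mitochondrial beta-oxidation, namely Acadvl, Acadm, Hadha, Hadh, Acaa2, Ech1, Eci1 and Decr1. Hadh was 1.91-fold lower (1.85 to 1.97), Acaa2 1.90-fold (1.84 to 1.96), Ech1 1.90-fold (1.85 to 1.96) and Acsl1 1.72-fold (1.68 to 1.76). Total-count scaling left 3 lower, against a background of 0.783%. Cardiomyocyte-marker scaling left 0 lower, against 0.468%, and Acsl3 higher, against 11.3%. Past 2-fold with TMM scaling 0 were lower, against 0.427%.

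A fit of genotype and treatment over all 4 libraries, with 1 residual degree of freedom per gene and limma adjusted by Benjamini-Hochberg over 14301 genes, called 0 of the 44 genes for treatment and 0 for genotype. Over all tested genes it called 1 for treatment (0.00699%) and 0 for genotype (0%). The lowest adjusted p by limma for treatment among the 44 was 0.24, for Cpt2 and Mlycd. At an unadjusted p below 0.05, 20 of the 44 were lower for treatment, against 14.1% of all tested genes in either direction, and 1, Ppara, was lower in KO, against 2.88%. On the recovered reads, edgeR's quasi-likelihood test called 0 of the 44 for treatment (background 0.154%) and 0 for genotype (0.0210%). At an unadjusted p below 0.05 it took in 20 and 1 of them, against 15.2% and 3.63% of all tested genes. DESeq2 called 5 for treatment, namely Cpt2, Ech1, Fabp3, Hadha and Mlycd, against 1.22% of all tested genes, and 0 for genotype, against 0.0909%.

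Related genes outside the 44 were read on the same scale from lists that were also chosen with earlier results of these data known. Over all tested genes, 4.22% were lower and 7.09% higher in the KO pair, and 0.797% and 0.860% in the WT pair. Of 16 further genes of mitochondrial fatty acid oxidation, 6 were lower and 1 higher in the KO pair (median log2 ratio -0.58) and 2 lower in the WT pair (-0.14). Slc25a20, the carrier that exchanges acylcarnitines across the inner membrane, had 114 CPM in KO isoproterenol and 167 CPM in KO saline, 1.65-fold lower, and 152 and 169 CPM in WT isoproterenol and WT saline. Slc22a5, the carnitine transporter of the cell membrane, had 18.2 and 34.3 CPM in KO isoproterenol and KO saline, 2.14-fold lower, and 22.8 and 31.6 CPM in WT isoproterenol and WT saline. The gene that was higher was Cpt1c, the neuronal relative of Cpt1a and Cpt1b, at 11.9 CPM in KO isoproterenol and 3.96 CPM in KO saline, 2.65-fold. Of 10 further uptake genes 3 were lower and 2 higher in the KO pair. Vldlr, 2.47-fold lower in the KO pair, was also counted in the WT pair, at 1.94-fold lower (1.87 to 2.01). Lpl, the lipase that frees fatty acids from circulating triglyceride, had 2852 and 5467 CPM in KO isoproterenol and KO saline, 2.17-fold lower, and 3419 and 5316 CPM in WT isoproterenol and WT saline, 1.47-fold lower.

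Of 14 further genes known as targets of PPAR alpha, 12 were lower in the KO pair (median -1.13) and 4 in the WT pair (-0.43), and 1 was higher in the KO pair. The shares of all tested genes were 4.22% and 0.797% lower and, in the KO pair, 7.09% higher. Plin5, the lipid droplet protein of oxidative tissue, had 54.9 and 105 CPM in KO isoproterenol and KO saline, 2.17-fold lower, and 74.3 and 108 CPM in WT isoproterenol and WT saline. Under saline 3 of these 14, Ucp3, Angptl4 and Txnip, were higher in KO than in WT, against 0.273% of all tested genes. The one higher in the KO pair was Ucp2, an uncoupling protein relative abundant in immune cells, at 178 and 68.8 CPM in KO isoproterenol and KO saline. Of 23 further regulators 1 was lower and 1 higher in the KO pair, against 4.22% and 7.09% of all tested genes. Of 14 further peroxisomal genes 2 were lower in that pair.

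Other energy pathways were counted by the same rule. The shares of all tested genes were 4.22% lower and 7.09% higher in the KO pair, and 0.797% and 0.860% in the WT pair. Of 18 TCA cycle genes 5 were lower in the KO pair and 0 in the WT pair, with medians of -0.44 and 0.05. Of 18 nuclear genes of the respiratory chain 1 was lower in the KO pair and 0 in the WT pair, with the same medians of -0.44 and 0.05. Both KO medians lie close to the -0.50 of the cardiomyocyte markers, and the -0.74 of the 44 genes lies below them. Glycolysis had 3 genes higher and 1 lower of 19 in the KO pair and 1 higher in the WT pair, with a median of 0.24 in each. These medians describe the lists and no difference between lists was tested.

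**Figure D4:**
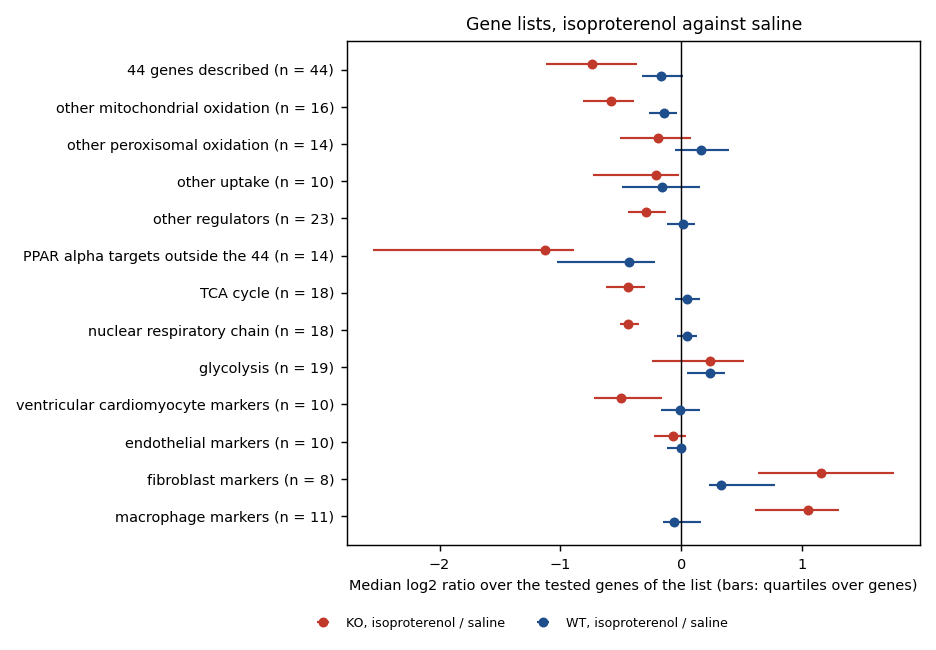
Median log2 ratio of isoproterenol to saline over the tested genes of each list in the KO pair and the WT pair after TMM scaling, with bars for the quartiles over genes. The 44 genes have medians of -0.74 (KO) and -0.17 (WT), the nuclear respiratory chain -0.44 and 0.05, and fibroblast and macrophage markers lie above 0 in KO.

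PPAR and RXR receptors bind paired copies of the AGGTCA motif set apart by a single base, so the promoters of the 44 genes were searched for letters of that kind. RefSeq windows of 250 bases before the start, on GRCm38.p6, were at hand for 36 of the 44 genes. The motif AGGTCANAGGTCA, with up to 2 mismatches on either strand, was found for 4 of the 36 (11.1%), against 3.72% of 27025 genes. It was found for 2 of the 21 genes counted as lower in the KO pair (9.52%) and for 2 of the 15 others (13.3%). The AGGTCA motif alone, which the longer motif contains, was found for 7 of the 36 (19.4%), against 15.8% of all genes, and TNAAGGTCA, a motif of estrogen-related receptors that also contains it, for 1 (2.78%), against 1.30%. The 4 longer matches are printed because they are the only ones found, in the direction of each gene, with the match in capitals. For Cd36 and Etfa the match is on the strand opposite to the gene, so the capitals are the reverse complement of the motif. The windows of Rxra and Cd36 lie inside the annotated genes, before internal starts.
Rxra, chr2:27709197-27709249, plus strand: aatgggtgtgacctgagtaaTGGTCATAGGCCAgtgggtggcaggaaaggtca
Cd36, chr5:17835927-17835979, minus strand: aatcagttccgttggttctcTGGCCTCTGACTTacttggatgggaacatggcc
Echs1, chr7:140116472-140116524, minus strand: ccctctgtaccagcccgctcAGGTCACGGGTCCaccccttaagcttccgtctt
Etfa, chr9:55512288-55512340, minus strand: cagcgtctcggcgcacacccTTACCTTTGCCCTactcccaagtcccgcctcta
Cd36 and Etfa were among the genes counted as lower in the KO pair, and Rxra and Echs1 were not. A match of letters describes the sequence and does not show that a factor binds there.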

How the data were processed

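Poly(A) messenger RNA libraries from heart ventricles, made with a stranded kit per the labels' protocols, were deposited by the authors as 1 table of CPM for 46603 genes. Per the submitters' processing notes, HTSeq and GRCm38.p4 (mm10) were used. The aligner, annotation and HTSeq settings are not stated in the labels. The columns that name a genotype and no treatment were read as saline, because the other columns name isoproterenol. Every CPM was a whole multiple of 1 read within 0.01 reads (100% of values), so whole reads were recovered. Ratios of reads, with 0.5 added to each, used TMM factors (edgeR 4.0.16) of 1.1 (KO isoproterenol), 0.966 (KO saline), 0.946 (WT isoproterenol) and 0.999 (WT saline) and exact conditional (Clopper-Pearson) 95% intervals, and the difference of responses a normal interval from the 4 counts. The libraries carry no molecular identifiers that the labels name, so reads may repeat molecules and intervals cover counting error only.

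The plan for normalized values, limma 3.58.1 with trend on log2(TMM-scaled CPM + 1), was the reported fit, with edgeR and DESeq2 1.42.0 on recovered reads beside it. The interaction serves as its residual, with 1 residual degree of freedom per gene. The limma p-values also rest on variances moderated across all tested genes. Intervals and fits were tested on simulated data. Gene positions came from GENCODE M21 (GRCm38), matched by Ensembl ID for 46091 genes, and promoters from RefSeq. The 44 genes and the lists were chosen with earlier results of these data known. All 44 genes may be named. Genes of other lists are named when counted in a comparison of 2 libraries, up to 10 per direction, or as markers, and 1 of them is not reported here. Alternatives were total-count scaling, DESeq2 size factors, a 2-fold threshold, ratios without interval, no filter and a pseudocount of 0.5, and, added after the data were seen, scaling without mitochondrially encoded reads and scaling by cardiomyocyte markers.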

Additional observations from a re-analysis of the deposited data

Results flagged for a closer look

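Among the 44 genes, 2 had isoproterenol to saline ratios on opposite sides of 1 in the KO and WT pairs with both counting intervals clear of 1. Neither gene was past 1.5-fold by the counting rule in either pair. Acsl6 had log2 ratios of -0.40 in the KO pair and 0.44 in the WT pair, a difference of -0.84 (-1.18 to -0.51, counting error only). Ppargc1a had log2 ratios of -0.18 in the KO pair and 0.42 in the WT pair, a difference of -0.60 (-0.72 to -0.49). With 1 library per group neither difference was tested. The KO ratio of Acsl6 was -0.22 with total-count scaling and 0.03 with cardiomyocyte-marker scaling, and that of Ppargc1a was 0.00 and 0.25, so the opposite signs depend on the scaling.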

How the results depend on the processing

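Counts are of the 44 genes, in the order KO pair, KO against WT given isoproterenol, and difference of responses where all 3 are given. A 2-fold threshold gave 11, 0 and 0 lower genes, and 0 lower in the WT pair. Cardiomyocyte-marker scaling, chosen after the data were seen, gave 11, 0 and 0 lower and 3, 1 and 1 higher. Total-count scaling gave 3 lower for KO against WT given isoproterenol and 3 for the difference, and the treatment fit then called 7, against 2.57% of all tested genes. Scaling without mitochondrially encoded reads, also chosen after the data were seen, gave 8 lower for the difference, against 1.08%. KO against WT given isoproterenol had 16 lower and 1 higher by ratios without an interval, against 6.42% and 11.5% of all tested genes, and 15 lower by the difference of log2(CPM + 1), against 3.5%. The treatment fit called 2 without a filter, against 1.31% of 24267 genes, and 5 by DESeq2, against 1.22%. The median of KO against WT given saline changed sign, to -0.01 with total-count scaling and -0.03 with cardiomyocyte-marker scaling. The cause of these changes was not tested, beyond what each scaling or threshold does by construction. Of the values computed under the alternatives, 96 stayed near the main value, 27 moved further and 2, both medians, changed sign. A count was near if it was equal or within a factor of 1.5, and a median if its shift on the log2 scale was small. Single genes could cross the threshold within these limits, as with the 17 lower genes of the KO pair under total-count scaling, against 25.

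No paired analysis was possible because each group holds 1 library, and no library was left out in turn, since that would empty a group. Spread between hearts was not measured, and depth limits Cpt1b most, with 46 reads in KO isoproterenol.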
